A study of Mus musculus with 8 samples.

Results

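The genes described here are 40 genes of DNA replication and S phase, read from a table of 16913 genes measured in the lateral ganglionic eminence (LGE) of mouse embryos at embryonic day 14.5. The LGE is the ventral forebrain zone whose dividing progenitors give rise to striatal projection neurons. The members were chosen by function, with earlier results of these data known, and matched by gene symbol. All 40 were listed in the table. They were sorted into 6 roles, namely origin licensing (11 genes), origin firing (5), the replication fork (13), deoxynucleotide supply (5), chromatin assembly (3) and the G1/S step (3).

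RNA came from 4 littermate control samples of genotype Dlx5/6-Cre;Meis2F/+ and 4 Meis2-CKO samples of genotype Dlx5/6-Cre;Meis2F/F, with C57BL/6J and CD1 mixed in the background of all. Both groups carried the Cre driver, and the controls had 1 floxed Meis2 allele, so they were not wild type. The labels do not say whether a sample held 1 embryo or several. As background, the Dlx5/6 enhancers drive Cre mainly in subventricular and mantle cells of the ventral forebrain, while much of S phase takes place in ventricular-zone progenitors that lie largely outside that domain. The values used are the authors' mean expression signal per genotype, their log2 fold change (Meis2-CKO relative to control) and their p-values. The per-library columns carry names that match no sample label and were not used here, so no spread between samples and no interval stands beside any mean, and no sample could be left out. The sequencing depth is unknown.

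DNA replication begins when the origin recognition complex, with Cdc6 and Cdt1, loads the MCM2-7 helicase onto origins in G1, a step called licensing. In S phase the helicase is activated by Cdc45, the GINS complex and Mcm10, polymerases copy the DNA around the sliding clamp PCNA, and ribonucleotide reductase and thymidylate synthase supply the building blocks. E2F transcription factors, released from the retinoblastoma proteins by cyclin kinases, switch on many of these genes at the G1/S boundary. In the embryonic forebrain such transcripts mark cycling progenitors, and young neurons have left the cycle.

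Because E2F factors act at the promoters of many replication genes, promoter sequences are shown first. Of the 40 members, 33 had a promoter in the RefSeq table (GRCm38.p6), which runs from 250 bases before to 50 bases after each annotated start. Ccne2, Gins1, Gins2, Gmnn, Mcm4, Pole and Prim2 had no entry. An E2F-type word was taken as any of TTTCCCGC, TTTGGCGC, TTTCGCGC or TTTGCCGC on either strand. Such a word lay in 13 of the 33 members (39.4%) and in 23 of 80 genes of the wider replication pathway (28.8%), a list kept apart from the members. It lay in 410 of 7686 genes with a mean of at least 5 in 1 genotype (5.33%) and 704 of all 27025 genes with a promoter (2.61%). The match was most frequent among the licensing genes, with 7 of 9, and 4 of the 5 MCM2-7 genes with an entry had one. Among fork genes 4 of 11 held a match, and none of the 5 nucleotide-supply genes did. For each of the 13 members, 1 match is printed with its flanks, 5′ to 3′ on the strand of the gene, with the E2F-type word in capitals. The last line gives Pcna, whose window held no E2F-type word, with its single CCAAT box (ATTGG on the strand of the gene) in capitals.

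Orc1, chr4:108579416-108579445, + strand: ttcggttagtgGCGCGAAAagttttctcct
Cdc6, chr11:98908002-98908031, + strand: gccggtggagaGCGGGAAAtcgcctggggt
Cdt1, chr8:122568035-122568064, + strand: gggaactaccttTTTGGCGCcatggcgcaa
Mcm3, chr1:20820275-20820304, - strand: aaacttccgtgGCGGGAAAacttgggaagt
Mcm5, chr8:75109345-75109374, + strand: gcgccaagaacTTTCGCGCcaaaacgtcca
Mcm6, chr1:128359797-128359826, - strand: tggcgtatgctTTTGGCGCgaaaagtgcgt
Mcm7, chr5:138172030-138172059, - strand: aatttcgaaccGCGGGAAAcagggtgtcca
Gins3, chr8:95633507-95633536, + strand: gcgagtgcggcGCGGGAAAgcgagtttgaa
Pola1, chrX:93632275-93632304, - strand: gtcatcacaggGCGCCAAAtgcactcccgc
Pold1, chr7:44548766-44548795, - strand: cacggcggcgtatcttgtgGCGGGAAAagc
Rfc3, chr5:151651200-151651229, - strand: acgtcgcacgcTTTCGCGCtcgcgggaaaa
Lig1, chr7:13278841-13278870, + strand: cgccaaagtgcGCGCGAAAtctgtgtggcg
Uhrf1, chr17:56304117-56304146, + strand: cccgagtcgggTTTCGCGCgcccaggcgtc
Pcna, chr2:132253250-132253279, - strand: accacgggtacgATTGGtccttgaggagag

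The words of Cdc6, Gins3, Mcm7, Pold1 and Mcm3 shown above read GCGGGAAA on the strand of the gene, the reverse complement of TTTCCCGC. In all, the members held 19 E2F-type matches, of which 12 lay wholly upstream of the annotated start, in 9 genes. The match of Orc1 began 27 bases before the start and that of Cdt1 32 bases after it. Lig1, Uhrf1, Mcm7 and Fen1 had more than 1 annotated start, and a match at any of them was counted.

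Further motifs known from cell-cycle promoters were counted in the same windows on both strands, the CCAAT box bound by the factor NF-Y and the cell-cycle genes homology region, CHR. The CHR was searched as TTTGAA and as the related palindrome spelled out after the sequences. A CCAAT box lay in 19 of 33 members (57.6%), against 44.3% of genes with a mean of at least 5. CHR words lay in 6 of 33 members (18.2%), against 16.2% of genes with a mean of at least 5. Their share was higher in the wider pathway (23.75%) and in all genes with a promoter (21.7%). A list of 30 mitosis genes, 26 of them with a promoter, had a different make-up, with an E2F-type word in 1 of 26, a CCAAT box in 20 of 26 and a CHR word in 20 of 26. Only 1 E2F-type match in the members overlapped a match of another motif. The upstream parts of Mcm5 and Mcm6, subunits of the same helicase ring, are printed because each carries several E2F-type words together with 2 CCAAT boxes; all motif letters are in capitals, and overlapping words run together.

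Mcm5, chr8:75109259-75109508, + strand: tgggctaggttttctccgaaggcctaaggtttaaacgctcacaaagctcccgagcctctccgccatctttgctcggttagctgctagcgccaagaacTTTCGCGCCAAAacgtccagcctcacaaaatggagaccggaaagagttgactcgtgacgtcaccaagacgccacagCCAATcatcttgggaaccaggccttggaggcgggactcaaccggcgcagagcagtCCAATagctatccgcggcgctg
Mcm6, chr1:128359706-128359955, - strand: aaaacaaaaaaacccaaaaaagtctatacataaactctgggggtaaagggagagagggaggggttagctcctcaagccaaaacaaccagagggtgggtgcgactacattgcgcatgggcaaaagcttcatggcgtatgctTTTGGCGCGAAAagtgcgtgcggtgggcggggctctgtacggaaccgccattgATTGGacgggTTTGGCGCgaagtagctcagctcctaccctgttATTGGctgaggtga

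In the Mcm5 stretch 2 E2F-type words on opposite strands overlapped, and in that of Mcm6 2 of the 3 did. The palindrome counted as a CHR word was TTCGAA. A word match describes these letters and is no evidence of binding, and the absence of one says nothing about other forms of the site.

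**Figure D1:**
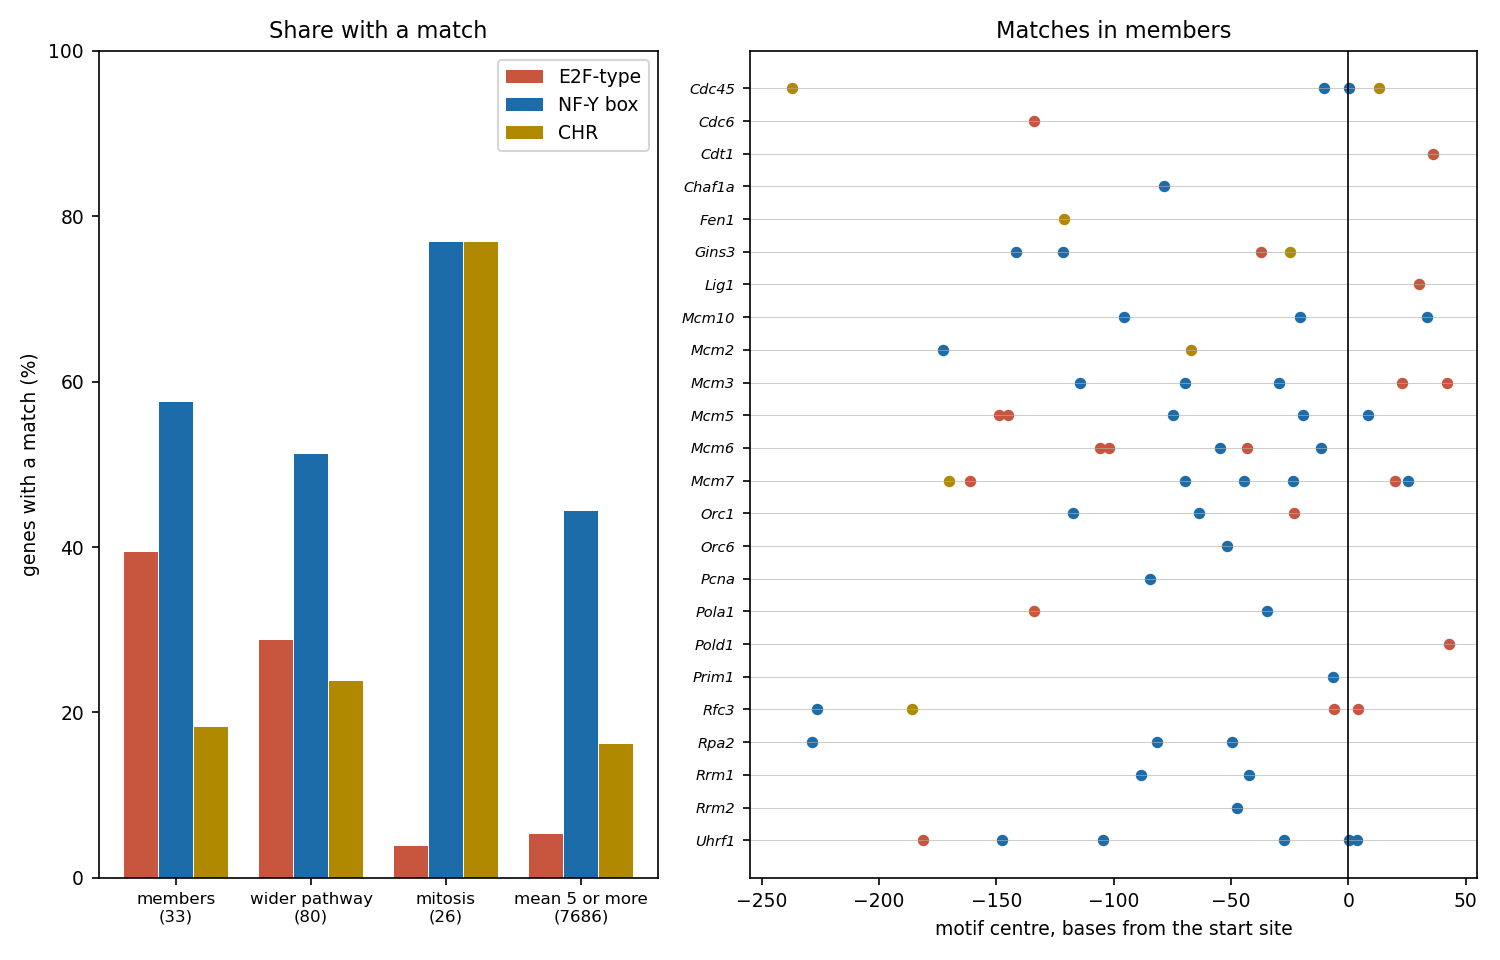
Left, the percentage of genes whose promoter window held an E2F-type word, a CCAAT box (drawn as NF-Y box) or a CHR word, for the members, the wider pathway, mitosis genes and genes with a mean of at least 5, with the number of genes with a promoter under each. Right, the centre of each match in bases from the annotated start for the members with any match. E2F-type words were found in 39.4% of members, 28.8% of the wider pathway and 5.33% of genes with a mean of at least 5.

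All 40 members had a higher mean in Meis2-CKO than in control, by a small amount, and none passed the test. In the authors' deposited table the log2 fold changes ran from 0.07 for Orc6 to 0.33 for Orc1, with a median of 0.19, and the ratios of the means from 1.04 to 1.25. The median over all genes was 0.01, and 53.3% of them lay above 0. Among the 10095 genes whose control mean lay in the range of the members, 55.5% lay above 0, with a median of 0.02, and 27.9% had a log2 fold change at least as high as that of Orc6. No member reached an adjusted p of 0.05, where 0.780% of all genes did in either direction and 0.237% as higher in Meis2-CKO. By the authors' deposited table, 1 of 40 members had an unadjusted p under 0.05 as higher (Pcna), against 0.828% of all genes. The median deposited p was 0.265 over the members, 0.760 over all genes and 0.737 over genes of like level. Members were chosen with earlier results known, so these counts and medians are descriptions.

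**Figure D2:**
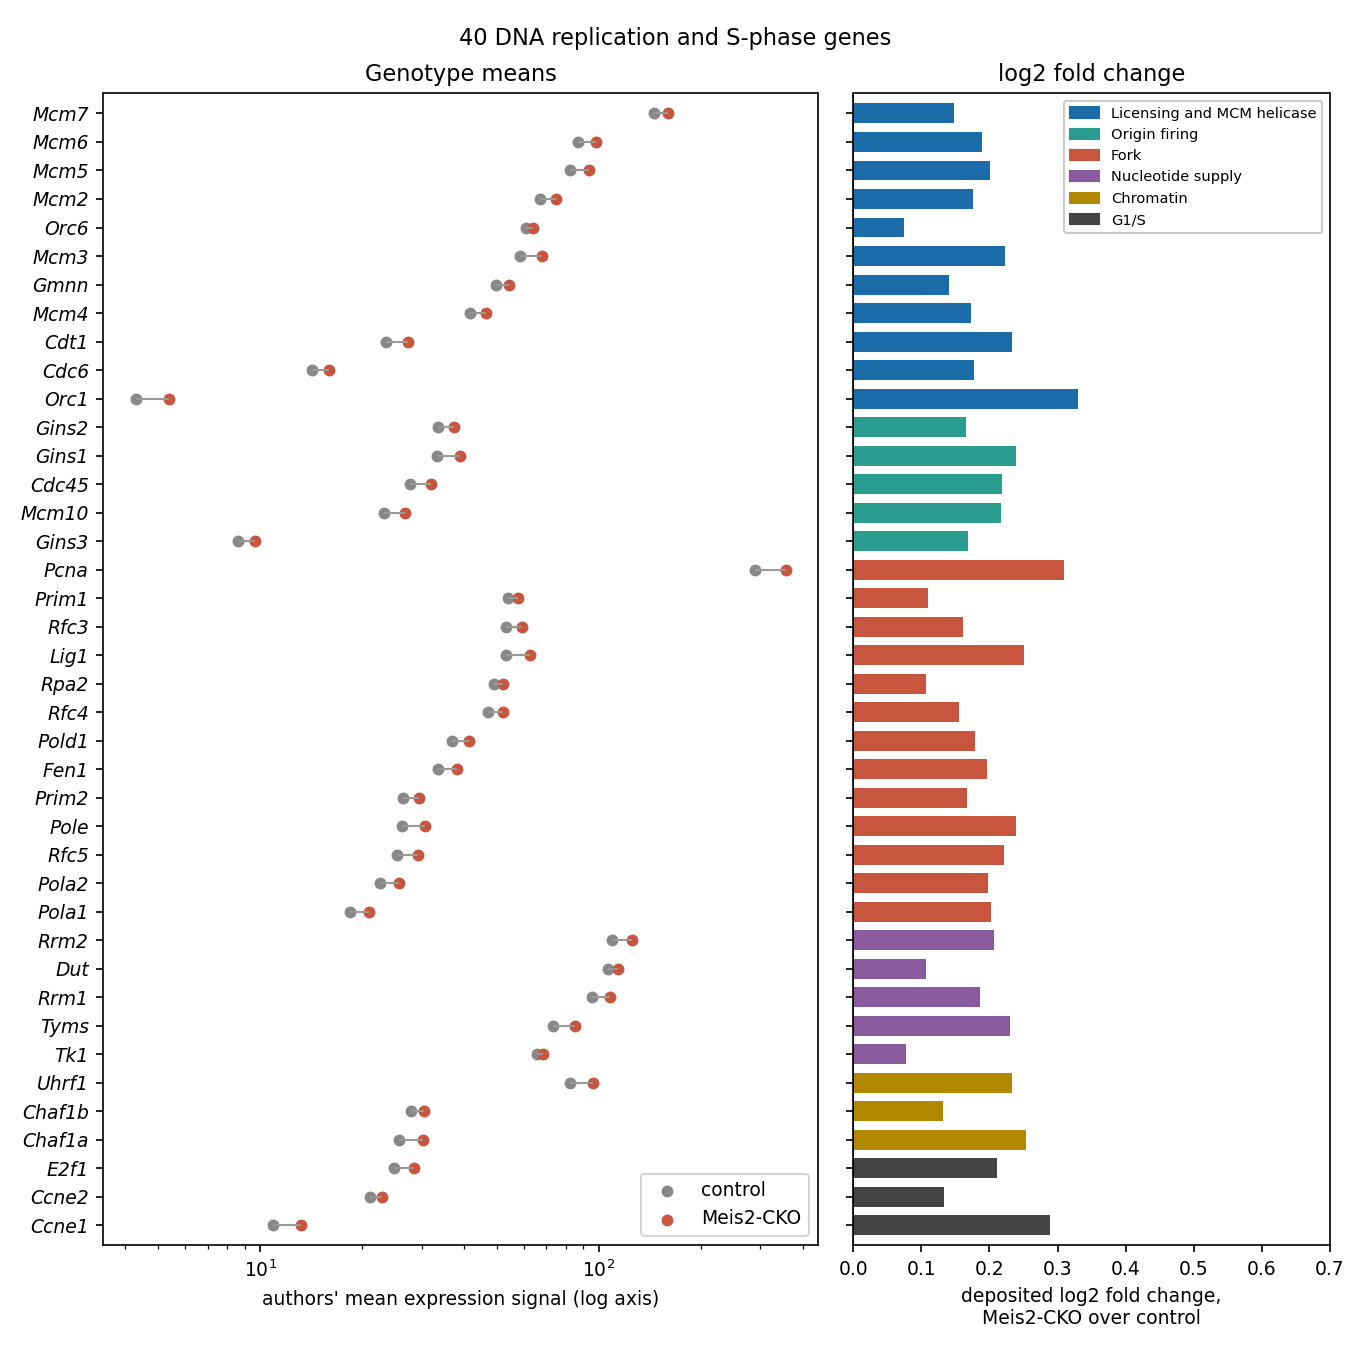
Left, the authors' mean signal of each of the 40 genes in control (grey) and Meis2-CKO (red) on a log axis, ordered by role and level. Right, their log2 fold change, coloured by role. Every red point lies to the right of its grey point, with log2 fold changes from 0.07 to 0.33; no error bars are drawn because only genotype means were used.

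The members spanned a wide range of deposited signal. Its unit is not named, so whether levels can be compared between genes is not known, and the order below describes the deposited values. Control means ran from 4.30 for Orc1 to 290 for Pcna in the authors' deposited table, with a median of 39.2. Summed over the members, the signal was 2141 in control and 2431 in Meis2-CKO, a ratio of 1.14. Pcna alone made up 66.6 of that difference, and without it the sums of the other 39 stood in a ratio of 1.12. The order was not tested, since no spread was used.

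Among the licensing genes, the 6 subunits of the MCM2-7 ring differed between genotypes by like amounts. Mcm7, with the highest signal of the 6, had deposited means of 146 in control and 160 in Meis2-CKO. Mcm6 stood at 86.8 and 98.1, Mcm5 at 82.4 and 93.9, and Mcm2 at 66.8 and 74.8 in the authors' deposited table. For Mcm3 the deposited means were 58.6 and 67.9, and for Mcm4, with the lowest, 41.7 and 46.6. The log2 fold changes of the 6 ran from 0.15 (Mcm7) to 0.22 (Mcm3), with deposited p-values between 0.0892 (Mcm3) and 0.259 (Mcm4) and an adjusted p of 1 for each.

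Origin recognition and loading factors bracketed the members' range. Orc1 (ENSMUSG00000028587, chromosome 4, 108579423 to 108614833, GRCm38), the largest ORC subunit and the one whose level is known to cycle, had the lowest means of all members, 4.30 and 5.39, and the largest log2 fold change, 0.33, with a deposited p of 0.466. Orc6, the smallest ORC subunit, read 61.1 and 63.9 in the authors' deposited table, the smallest log2 fold change of the members at 0.07. Cdc6, the loading ATPase, had deposited means of 14.2 and 15.96 and a log2 fold change of 0.18. Cdt1, which brings the helicase to ORC, stood at 23.5 and 27.4 (log2 fold change 0.23), and its inhibitor Gmnn (geminin), which blocks a second round of licensing, at 49.6 and 54.2 (0.14) in the authors' deposited table. Loader and inhibitor were thus both higher in mean, and neither passed.

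The other ORC and MCM-like genes, singled out after their values were seen, lay nearer to 0 than the members' median of 0.19. The member Orc6 (0.07) lay close to Orc2 and Orc3, and Mcmbp, of the wider list, was at 0.12. In the authors' deposited table Orc2, Orc3, Orc4 and Orc5 had log2 fold changes of 0.06, 0.07, -0.08 and -0.03, and their summed signal stood at 126 in both genotypes. Mcm8 and Mcm9, which act in recombination and not in the replicative ring, had deposited log2 fold changes of 0.09 and 0.02. Whether they differ from MCM2-7 was not tested.

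Genes of origin firing had log2 fold changes between 0.17 and 0.24, with no call among the 5. Cdc45, which joins the helicase at activation, read 27.8 in controls and 32.0 in Meis2-CKO by the authors' deposited table (a log2 fold change of 0.22). Mcm10, a helicase-activating factor, had deposited means of 23.2 and 26.8 (0.22). Of the GINS ring, Gins1 stood at 33.2 and 38.9, Gins2 at 33.5 and 37.3, and Gins3 at 8.62 and 9.62 in the authors' deposited table, with log2 fold changes of 0.24, 0.17 and 0.17. The remaining GINS gene, Gins4, a gene of the wider list, had deposited means of 27.9 and 29.4 (0.09).

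The fork genes included the member with the smallest p. Pcna (ENSMUSG00000027342, chromosome 2, 132249162 to 132253314, GRCm38), the sliding clamp that holds polymerases on DNA, read 290 in controls and 356 in Meis2-CKO by the authors' deposited table, with a log2 fold change of 0.31, a deposited p of 0.00336 and an adjusted p of 0.332. This value has a particular limit. The processed pseudogene Pcna-ps2 (ENSMUSG00000067608, chromosome 19, 9283380 to 9284160) matches the Pcna transcript over 781 bases with 6 mismatches, and it went strongly the other way. It fell from 39.4 in control to 2.57 in Meis2-CKO by the authors' deposited table, a log2 fold change of -3.86 (adjusted p = 9.37e-32), and was named after this value was seen.

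Reads from these near-identical sequences could be assigned to either, so both values are uncertain. The Pcna mean was higher by 66.6, while that of Pcna-ps2 fell by 36.8. Adding the deposited means gave 329 in control and 359 in Meis2-CKO, a log2 ratio of 0.12. If the signal is per transcript length, the pseudogene can be weighted by its 781 exon bases against 2400 for all annotated Pcna exons merged. This gave 303 and 357, a log2 ratio of 0.24. A single Pcna transcript may be shorter than the merged exons, which would give the pseudogene more weight. The log2 ratio of the Pcna means alone was 0.30. How reads were divided between the 2 loci was not tested, and the single unadjusted p under 0.05 among the members rests on this gene.

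No other member had a listed processed pseudogene at the cut used here. A search of the annotated transcripts for matches of at least 95% identity over 300 bases found a processed pseudogene for 6 members (Cdc6, Mcm7, Pcna, Rfc5, Rrm2 and Uhrf1), and Pcna-ps2 was the only listed one of these. Tyms matched 10 other genes over at most 361 bases, 4 of them listed. Exon bases on the opposite strand were shared with a listed gene by 12 members, and the sources used here do not say if counting used strand. These 12 had a median log2 fold change of 0.18, and the 28 without such an overlap 0.19. The neighbours with the most shared bases did not all go the way of their member. By the authors' deposited table Ubxn6, which shares 4648 exon bases with Chaf1a, was at 42.8 and 40.3 (a log2 fold change of -0.07). Gse1, which shares 2758 with Gins2, was at 48.7 and 58.5 (0.28), with an unadjusted p of 0.0494 in the authors' deposited table. Gm10143, which shares 1909 with Fen1, was at 2.00 and 1.73 (-0.19) in the authors' deposited table.

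The replicative polymerases and primase had deposited log2 fold changes from 0.11 to 0.24. Pole, the leading-strand polymerase subunit, read 26.3 in controls and 30.8 in Meis2-CKO by the authors' deposited table (0.24), and Pold1, catalytic subunit of the lagging-strand polymerase, read 36.8 and 41.3 (0.18). The primase subunits Prim1 and Prim2 stood at 54.0 and 57.7 and at 26.4 and 29.4 in the authors' deposited table (0.11 and 0.17). Pola1 and Pola2, which form the polymerase joined to primase, had deposited means of 18.4 and 21.0 and of 22.6 and 25.7 (0.20 each). Pola1 is the X-linked member, and the sex-linked genes differed in mean between the groups. Xist read 78.0 and 256 in the authors' deposited table, with a deposited p of 0.0136 and an adjusted p of 0.985. All 4 Y-linked genes examined had a lower mean in Meis2-CKO, 3 of them past an adjusted p of 0.05. The labels give no sex, and the part of sex composition in these results was not tested.

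The clamp loader and the enzymes of Okazaki fragment maturation gave similar values. Rfc3, Rfc4 and Rfc5, small subunits of the loader that places PCNA on DNA, stood at 53.4 and 59.2, 47.2 and 52.1, and 25.3 and 29.3 in the authors' deposited table, with log2 fold changes of 0.16, 0.16 and 0.22. Lig1, the ligase that seals Okazaki fragments, read 53.0 and 62.6 by the authors' deposited table, a log2 fold change of 0.25 with an unadjusted p of 0.0645, the second smallest p among fork genes. Fen1, the flap endonuclease, stood at 33.5 and 38.1 (0.20), and Rpa2, of the single-strand binding complex, at 48.9 and 52.3 (0.11) in the authors' deposited table.

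Deoxynucleotide supply split into genes near the members' median and genes below it. Rrm1 and Rrm2, the subunits of ribonucleotide reductase, stood at 95.7 and 108 and at 110 and 125 in the authors' deposited table, with log2 fold changes of 0.19 and 0.21. Tyms, which makes thymidylate, read 73.2 and 85.2 by the authors' deposited table, a log2 fold change of 0.23 with an unadjusted p of 0.0563. The salvage kinase Tk1 stood at 65.5 and 68.5 (0.08) and Dut, which removes dUTP, at 107 and 114 (0.11) in the authors' deposited table. Differences within this group were not tested.

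Chromatin and G1/S genes completed the members. Uhrf1, which recruits the maintenance methyltransferase to newly copied DNA, read 82.3 in controls and 95.8 in Meis2-CKO by the authors' deposited table (0.23, unadjusted p = 0.0590). Chaf1a and Chaf1b, subunits of the assembly factor CAF-1, had deposited means of 25.6 and 30.3 and of 28.0 and 30.4 (0.25 and 0.13). Ccne1 and Ccne2, the cyclins that drive entry into S phase, stood at 10.9 and 13.2 and at 21.1 and 23.0 in the authors' deposited table (0.29 and 0.13). E2f1, an activating E2F, had deposited means of 24.8 and 28.5 (0.21). None of these 6 genes passed.

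**Figure D3:**
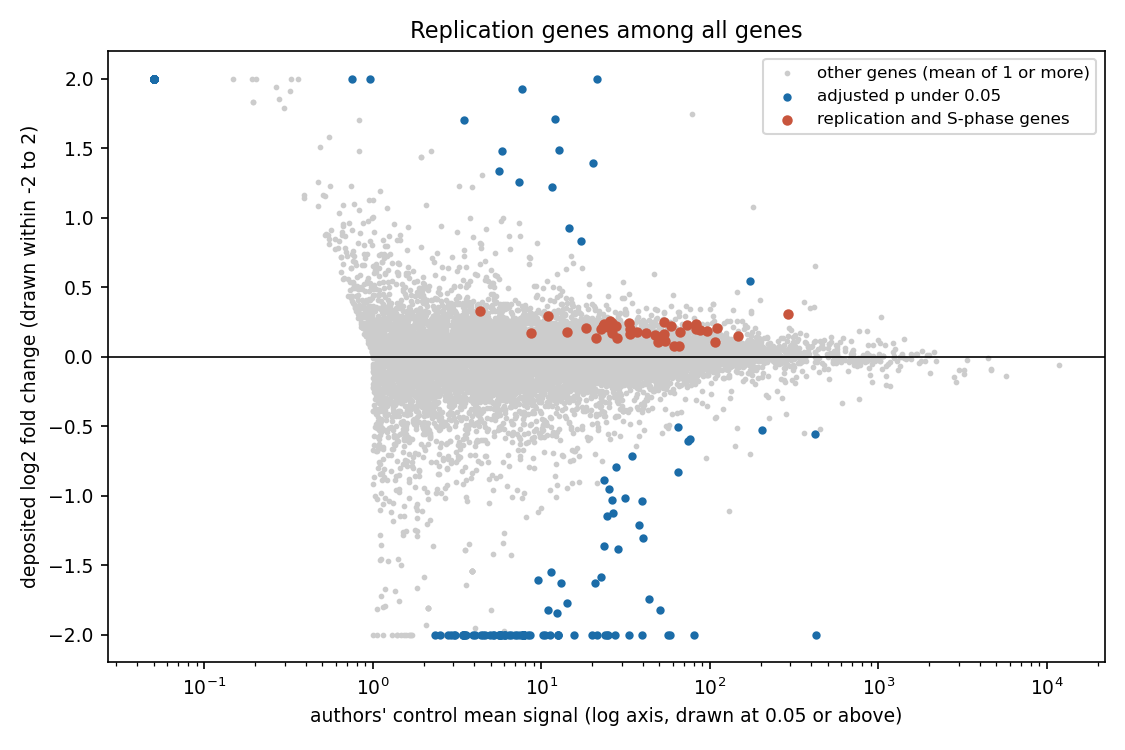
Each gene with a mean of at least 1 in 1 genotype, by the authors' control mean (log axis) and their log2 fold change. The 40 replication and S-phase genes (red) sit between 0.07 and 0.33, above the line at 0 and away from the genes with an adjusted p under 0.05 (blue); values past 2 in either direction are drawn at the edge.

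The log2 fold changes were set beside the presence of an E2F-type word, with no test. In the authors' deposited table the median log2 fold change was 0.20 over the 13 members with a match (0.15 to 0.33) and 0.20 over the 20 without (0.07 to 0.31). The 7 members with no promoter entry had a median of 0.17. In the wider pathway the medians were 0.14 over 22 genes with a match, 20 of them above 0, and 0.10 over 56 without, 46 of them above 0. Over genes with a mean of at least 5 the medians were 0.04 with a match and 0.02 without. These are descriptions of the promoter letters and the deposited values side by side.

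The wider pathway, listed apart from the members with earlier results known, had smaller values. Of 103 genes, 101 were listed, 86 lay above 0, the median log2 fold change was 0.10, and none reached an adjusted p of 0.05 in the authors' deposited table. For 39 other genes of the replication machinery the median was 0.09, with 33 above 0. Those with the smallest p were Tipin, of the fork protection complex, at 108 and 120 (0.17), Clspn, a checkpoint mediator at the fork, at 24.6 and 29.6 (0.28), and Rpa1, the largest subunit of the single-strand binding complex, at 57.7 and 64.96 (0.18) in the authors' deposited table. In 10 other nucleotide genes the median was 0.11, with Shmt1 at 14.9 and 18.0, Nme1 at 72.4 and 65.4 and Dck at 49.4 and 53.7 in the authors' deposited table. The 9 other chromatin genes had a median of 0.13. Those with the smallest p were the histone chaperone Nasp at 311 and 341, the maintenance methyltransferase Dnmt1 at 72.2 and 79.7 and Rbbp7 at 87.7 and 95.9 in the authors' deposited table.

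Regulators of the G1/S step were mostly higher in mean, with 1 gene well below 0. Of 23 such genes 21 lay above 0, with a median deposited log2 fold change of 0.12. Myc, a growth-promoting transcription factor, read 12.1 in controls and 6.98 in Meis2-CKO by the authors' deposited table (a log2 fold change of -0.77, unadjusted p = 0.0195, adjusted p = 1), where 1.34% of all genes had an unadjusted p under 0.05 as lower. Ccnd1, a D-type cyclin, stood at 41.2 and 48.5 (0.25) and Ccna2, the S-phase cyclin, at 96.0 and 106 (0.15) in the authors' deposited table. The CDK inhibitors that were listed, 5 of 7, had a median of 0.04, with Cdkn1b at 58.8 and 60.1, Cdkn1c at 25.9 and 24.6 and Cdkn1a at 5.48 and 5.86 in the authors' deposited table. Of 15 checkpoint and repair genes 14 lay above 0 with a median of 0.16, and none reached an adjusted p of 0.05 in the authors' deposited table.

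**Figure D4:**
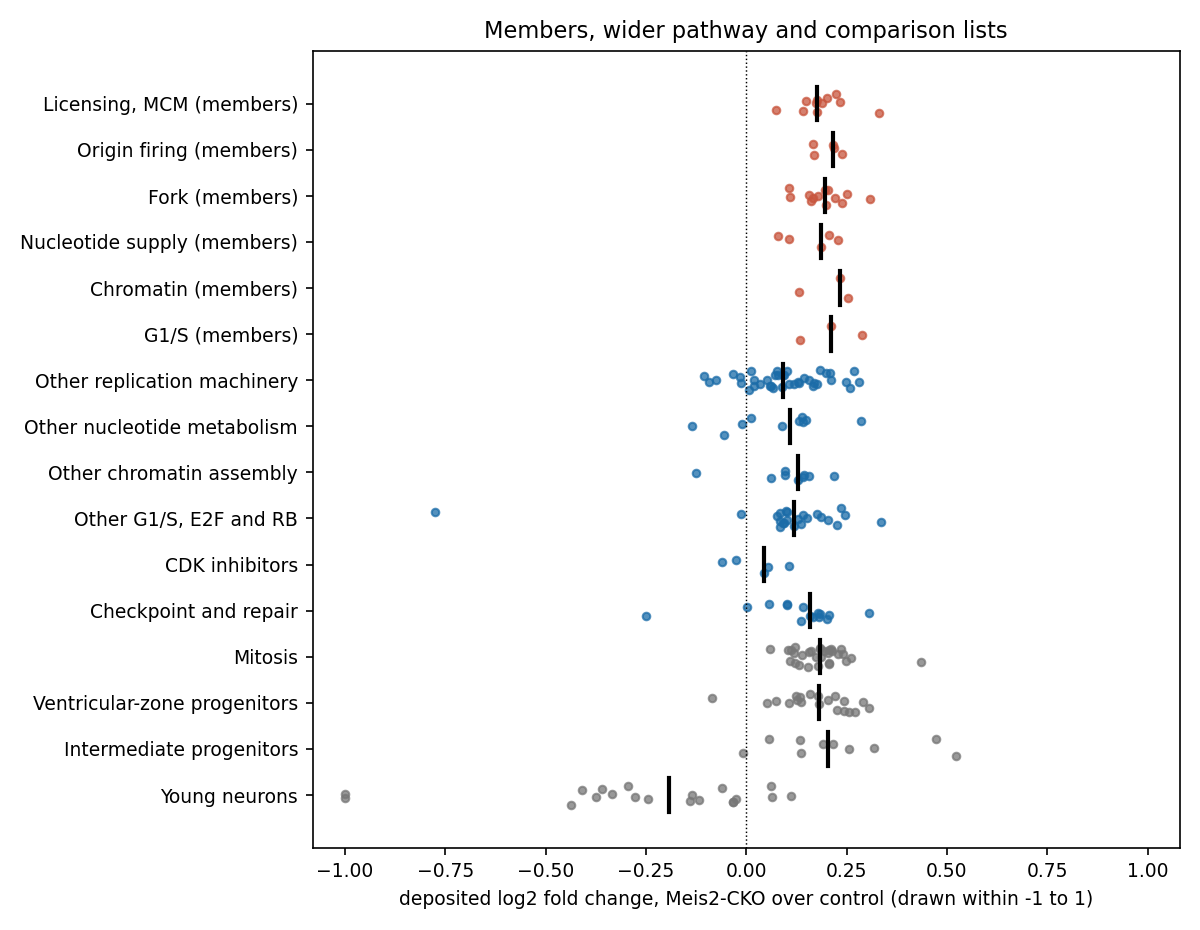
The authors' log2 fold change of each listed gene (points, spread vertically for view) by list, with the list's median as a black bar; members in red, wider pathway in blue, comparison lists in grey, values past 1 drawn at the edge. Member roles have medians from 0.18 to 0.23, mitosis, ventricular-zone and intermediate progenitor genes 0.18 to 0.20, and young-neuron genes -0.19.

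Progenitor and mitosis genes had medians close to that of the members, and none of these genes passed. In bulk tissue more cells of a type and more RNA per cell cannot be told apart. The 20 ventricular-zone progenitor genes had a median deposited log2 fold change of 0.18, with 19 above 0, and their summed signal was 2151 in control and 2402 in Meis2-CKO, a ratio of 1.12 beside 1.14 for the members. For 30 mitosis genes the median was 0.18, all above 0. For 10 intermediate progenitor genes it was 0.20, with 9 above 0. Neurog2 (0.52) and Eomes (0.47) were the highest of these 10, and both are markers of pallial rather than LGE progenitors. Hes6 (-0.01) lay below 0. No list of pallial genes was examined, and whether the samples held pallial tissue was not tested. Less the ventricular-zone median, a step added after the data were seen, the members' median was 0.01, and 22 of 40 stayed above 0. Both values follow from the closeness of the medians and are no test. Young-neuron genes went the other way, with 17 of 20 below 0, a median of -0.19, summed signals of 5040 and 4614, and 2 genes that fell at an adjusted p of 0.05. Their part in the values of the replication genes was not tested.

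Lists of other cell types in the tissue were examined in the same way. The summed signal of 9 red blood cell genes was 3036 in control and 3059 in Meis2-CKO, that of 9 microglial genes 68.7 and 69.8, and that of 10 endothelial and pericyte genes 63.2 and 64.8, in the authors' deposited table; no gene of these lists was listed at 0 in control. The 6 meningeal genes were low throughout, with sums of 6.195 and 3.605 and 5 of 6 below 0. Of the 13 LGE marker genes, which include Dlx1, Dlx2, Gad1 and Foxp1, all were listed, with control means from 17.3 to 393. Their summed signal was 1063 in control and 1093 in Meis2-CKO, while the median deposited log2 fold change was -0.25, with 5 above 0. Of these genes 4 fell at an adjusted p of 0.05 in the authors' deposited table, and 5 had an unadjusted p under 0.05 as higher.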

How the data were processed

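RNA-seq of 4 control and 4 Meis2-CKO samples was used as 1 deposited table. Per the submitters' processing notes, which assign no roles, the tools included HISAT2 2.1.0, StringTie 1.3.1 and FastQC 0.11.5, with builds mm10 and GRCm38.p2. For the statistical tool, nothing is given in the sources used here. The mean signal per genotype was made by the authors, per the file headers, in a unit that is not named; with protein-coding genes ordered by exon length into 5 equal bins, its control median was 9.18 in the shortest and 14.2 in the longest. The log2 fold change is the authors' deposited value; for 87.4% of genes it lay within 0.01 of log2 of the means with 0.1 added plus 0.01, close to the log2 ratio of the column sums. The p-value and adjusted p-value are the authors' deposited values, the latter equal to a Benjamini-Hochberg adjustment over 16913 genes. The 8 library columns match no label and were not used, so the fits per library named in the design, leaving out samples and a replicate block were not run. What spread the p-values measure is not known. Over all genes their median was 0.760 and 3.17% lay under 0.1, a smaller share than evenly spread p-values would give. The test may therefore be strict, and the lack of a call is weak evidence of no difference.

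Members and lists were chosen with earlier results of these data known. Named were all members, and in each wider list the 3 genes with the smallest p, except in the checkpoint list, whose single genes are not reported here. Gene places, exon overlaps and transcript copies came from GENCODE M21 (GRCm38; 16861 genes matched by ID), with BLAST 2.17.0 for copies, and promoters from RefSeq. Alternatives were other adjustments, thresholds, low-value filters, pseudocounts and centrings. The adjustment, list medians and motif search were tested on simulated data. Scripts ran in Python 3.11.15 with pandas 2.3.3, matplotlib 3.10.9, numpy 2.4.6 and scipy 1.17.1.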

Additional observations from a re-analysis of the deposited data

How the results depend on the processing

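No paired analysis was possible because the library columns carry no sample names or replicate numbers that match the labels; for the same reason no sample was left out. The count of members past the threshold was 0 at an adjusted p of 0.05 or 0.1, under the Benjamini-Yekutieli adjustment and with only genes of mean 1 or more, or 5 or more, in the authors' deposited table, and 1 (Pcna) at an unadjusted p of 0.05. The median log2 fold change of the members, 0.19 as deposited, was 0.18 with a pseudocount of 1 (0.177) or 0.1 (0.181), less the median over all genes (0.182) or over genes of mean 5 or more (0.177), and it stayed at 0.19 with equal column sums or upper quartiles. Added after the data were seen, it stayed at 0.19 without Pcna, without Pola1 and without members sharing exon bases, and was 0.0124 less the median of the ventricular-zone list, where 22 of 40 members lay above 0. Under the other scalings tried all 40 lay above 0, and each of the 40 kept its direction with a pseudocount of 1 (0.06 to 0.30) and centred on genes of mean 5 or more (0.06 to 0.31). Adding Pcna-ps2 to Pcna, also added after the data were seen, gave a log2 ratio of 0.12, or 0.24 weighted by exon length. Without values per library, depth and spread limit every statement to the authors' test.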
